A study of Mus musculus with 24 samples.

Results

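The 5 mouse dopamine receptor genes, Drd1, Drd2, Drd3, Drd4 and Drd5, were taken by symbol from the feature list of a single-cell RNA-seq series of motor cortex and dorsal striatum. All 5 were found among 54235 features. The series asked how forelimb reach training changes the cells of both regions. Motor cortex came from Fos-CreER::Ai9 mice and dorsal striatum from Arc-CreER::Ai9 mice, in which a tamoxifen-dependent Cre under an activity-regulated gene switches on a red fluorescent reporter, so that region and driver line cannot be told apart. Every mouse, untrained controls included, was given 4-hydroxytamoxifen, and tissue was taken 3 days later. Early mice had been trained for 2 days and late mice for 8 days, and control mice were not trained. Ages were not given in the sources used here. Each region had 2 control, 2 early and 2 late pools of 2 mice. A pool was split by hemisphere into separate libraries, and the pool was the unit of replication.

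Dopamine receptors are G protein-coupled receptors. The D1-like receptors, encoded by Drd1 and Drd5, couple to stimulatory G proteins (Gs, or Golf in the striatum) and raise cyclic AMP. The D2-like receptors, encoded by Drd2, Drd3 and Drd4, couple to inhibitory Gi and Go proteins and lower it. In the striatum, spiny projection neurons of the direct pathway are known to carry D1 receptors and those of the indirect pathway D2 receptors, while cholinergic interneurons carry D2 and D5 receptors. Drd3 is known mainly from the ventral striatum, which was not the dissected area.

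In the GENCODE M21 annotation of GRCm38, Drd1 (ENSMUSG00000021478) lies on the minus strand at chr13:54051183-54055705 with 2 exons in each of 3 transcripts. Drd2 (ENSMUSG00000032259) lies on the plus strand at chr9:49340627-49408177 with 8 exons. Drd3 (ENSMUSG00000022705) lies at chr16:43754026-43822932 on the plus strand and shares its span with the microRNA gene Gm25996. Drd4 (ENSMUSG00000025496) lies at chr7:141292006-141296464 on the plus strand. Drd5 (ENSMUSG00000039358), a gene of 1 exon at chr5:38319367-38322518 on the plus strand, overlaps the antisense gene Gm26560. Gm26560 had 71 UMIs (unique molecular identifiers, each counting 1 captured RNA molecule) against 641 of Drd5 in motor cortex, and 12 against 515 in dorsal striatum. Whether strand was used in the counting was not given in the sources used here, so reads of this pair could have been split between them.

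Drd1 and Drd2 carried most of the receptor UMIs and separated the 2 main kinds of striatal neuron, so the stretches before their first start sites are shown, from RefSeq promoters of GRCm38.p6, 5′ to 3′ on the gene's strand, with each CG dinucleotide (the same on both strands, and the sole motif searched) in capitals.
Drd1 (203 bases, the part outside the annotated gene), chr13:54055706-54055908, minus strand: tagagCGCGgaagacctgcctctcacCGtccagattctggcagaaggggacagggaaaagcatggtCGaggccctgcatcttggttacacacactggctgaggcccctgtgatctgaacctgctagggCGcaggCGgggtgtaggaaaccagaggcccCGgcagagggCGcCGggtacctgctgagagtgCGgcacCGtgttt
Drd2 (250 bases), chr9:49340153-49340402, plus strand: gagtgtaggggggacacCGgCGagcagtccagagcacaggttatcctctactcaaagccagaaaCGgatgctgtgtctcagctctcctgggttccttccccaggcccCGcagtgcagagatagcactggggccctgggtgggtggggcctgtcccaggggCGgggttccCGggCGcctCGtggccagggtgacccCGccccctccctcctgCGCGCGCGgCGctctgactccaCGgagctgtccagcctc
In the 250 bases before the first start site, Drd1 and Drd2 each had 15 CG dinucleotides, and 27.3% of the 32851 promoters in the table had at least as many. The median promoter had 6. Drd5 had 35 CG dinucleotides, a count reached by 2.97% of promoters, Drd4 had 12 (33.5% of promoters) and Drd3 had 1 (92.1% of promoters). A further Drd1 start site in the table had 5 (55.6% of promoters). This describes the windows only.

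Counts were used from 23 of 24 libraries. They held 541 to 10030 barcodes and 5260446 to 30470621 UMIs each, and 98612 cells were kept (47985 of motor cortex and 50627 of dorsal striatum), with library medians of 1967 to 5520 UMIs per cell. The counts of the right-hemisphere library of striatal control replicate 1 were not analysed here and only its barcode list was used, so that pool is its left hemisphere alone. The 10x kit was version 2 or 3, per the labels' protocols, but not given per library. All 24 libraries fell into 2 sets by the cell barcodes they shared: replicate 1 of control and late in both regions (set A) and the other 8 pools (set B). Any 2 libraries shared at most 148 barcodes, with a median of 3. Per 1000000 possible pairs of barcodes, libraries shared 1.31 barcodes within set A, 0.261 within set B and 0.0240 between the sets on average. Single pairs overlapped, from 0.0360 to 0.565 within set B and from 0 to 0.437 between the sets, so the sets rest on means over pools. No early pool was in set A. The set moved with the levels of many genes, receptors among them, so values are given by pool. The replicate 1 values of control and late are the set A pools.

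Cell classes were named from marker genes other than the receptors, and the 5 receptors were left out of the clustering. All class names below mean "-like" cells in this sense. Direct-pathway spiny cells had Tac1 UMIs in 97.2% of cells and Pdyn UMIs in 64.0%. Indirect-pathway spiny cells had Penk UMIs in 97.5% and Adora2a UMIs in 92.0%. Cholinergic interneurons had Chat UMIs in 79.8% and Slc5a7 UMIs in 97.4%. Levels are UMIs of the gene per 1000000 UMIs of the class in a pool (CPM), given as mean ± SD over pools (n = 6 pools) unless stated, and a share of cells is the share with at least 1 UMI.

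In dorsal striatum, Drd1 had its highest level in direct-pathway spiny cells. Its level there was 284 and 521 CPM in the control pools, 602 and 574 in the early pools and 242 and 596 in the late pools (469.9 ± 163, 8542 cells). The 2 set A pools were the low ones and did not overlap the other 4. Drd1 UMIs were found in 76.8% of these cells (Wilson 95% interval 75.9 to 77.6%, which like all intervals of shares here covers counting error only), at a median of 4680.5 UMIs per cell. In microglia of the same tissue, which should lack the gene, the share was 0.40% (0.259 to 0.617%) at a median of 1825 UMIs. After each cell was thinned to 1000 UMIs, the shares were 35.9% and 0.16%. Up to 23 Drd1 UMIs were counted in a single cell.

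Eccentric spiny cells, a smaller kind of spiny neuron marked by Otof (55.5% of these cells against 1.44% of all others), also held Drd1. Their level was 350 and 345 CPM in the control pools, 469 and 504 in the early pools and 145 and 525 in the late pools, and 81.1% of 947 cells had a UMI. The set A pools held 8 and 10 of these cells and the set B pools 204 to 272, so the set A values rest on 9 and 3 UMIs. Drd2 UMIs were found in 4.75% of them.

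Somatostatin (Sst) interneurons were next for Drd1 among the named classes, at 46.2 and 68.2 CPM in the control pools, 127 and 85.0 in the early pools and 40.8 and 97.2 in the late pools (77.4 ± 32.5). Of 857 such cells 38.6% had a Drd1 UMI (35.4 to 41.9%). Their Drd1 UMIs numbered 127 per 1000 UMIs of 10 spiny-neuron marker genes, against 47.3 in direct-pathway spiny cells, 6.13 in microglia and 3.23 in astrocytes. The part of free RNA in the Sst value was not tested. Fibroblasts ranked next after Sst cells by mean log2(CPM + 1), but with 0 to 61.3 CPM over pools, from 15 Drd1 UMIs in 276 cells. Striatal parvalbumin (Pvalb) interneurons had 3.08 ± 3.41 CPM and cholinergic interneurons 0.97 ± 1.86, beside 2.97 ± 4.28 in microglia. The microglia mean rests on late replicate 1 (11.6 CPM), and the other 5 pools had 0 to 2.24 CPM.

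**Figure D1:**
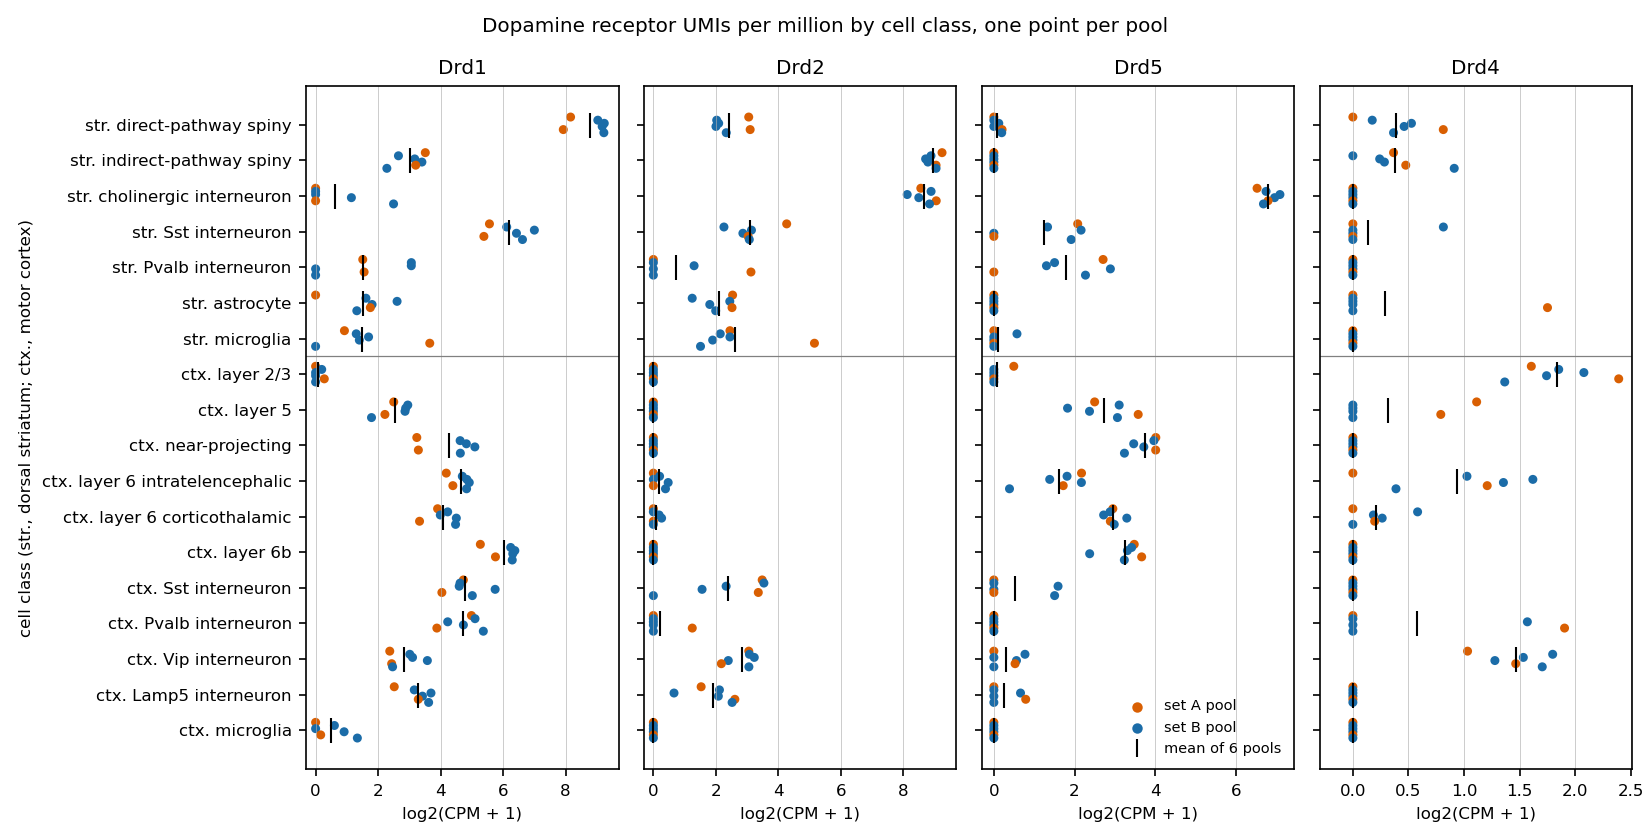
Level of Drd1, Drd2, Drd5 and Drd4 as log2(CPM + 1) (x axis, a scale of its own in each panel) in 7 classes of dorsal striatum (above the line) and 11 of motor cortex (y axis). Each point is 1 pool, orange for set A and blue for set B, and the black tick is the mean of 6 pools. Drd1 stands highest in direct-pathway spiny cells, Drd2 in indirect-pathway spiny and cholinergic cells, Drd5 in cholinergic cells and Drd4 in layer 2/3 and Vip cells.

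Drd2 was high in 2 striatal classes. In indirect-pathway spiny cells its level was 605 and 473 CPM in the control pools, 420.1 and 442 in the early pools and 529.9 and 529.8 in the late pools (500.1 ± 68.3), and 81.2% of 10202 cells had a UMI (80.5 to 82.0%). In cholinergic interneurons it was 377 and 474, 279 and 361, and 532 and 459 CPM in the same order (414 ± 91.6), and 203 of 228 cells had a UMI (89.0%, interval 84.3 to 92.5%, at a median of 15080.5 UMIs per cell). The 2 classes overlapped and differed by 0.29 ± 0.29 on the log2(CPM + 1) scale (exact sign-flip permutation test, two-sided, p = 0.125 before adjustment). Drd2 UMIs were found in 1.00% of microglia (0.759 to 1.32%). In cholinergic cells they numbered 882 per 1000 spiny-marker UMIs, against 40.6 in indirect-pathway cells and 16.7 in microglia, and the part of free RNA was not tested. No other named class stood clear of the rest. Sst interneurons had 8.46 ± 5.02 CPM and microglia 8.61 ± 12.8, of which late replicate 1 had 34.7 and the other 5 pools 1.85 to 4.47. Fibroblasts had 187 CPM in control replicate 1 (15 UMIs in 48 cells), 24.5 in late replicate 1 (2 UMIs) and 0 in the 4 set B pools.

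Drd5 was concentrated in cholinergic interneurons. Its level there was 91.2 and 107 CPM in the control pools, 136 and 124 in the early pools and 110.3 and 102 in the late pools (111.5 ± 15.8), and 148 of 228 cells had a UMI (64.9%, 58.5 to 70.8%). This class held 413 of the 515 Drd5 UMIs of the striatum. Striatal Pvalb interneurons had 0 to 6.41 CPM (mean 3.18) and oligodendrocyte precursors 3.07 ± 2.47, while all spiny cells together had 5 Drd5 UMIs in 21775 cells. Drd2 and Drd5 were found together in 142 cholinergic cells, against 131.7 expected within pools from their separate shares. Cells were not thinned for this count, and depth was not held fixed.

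Drd3 and Drd4 were rare in the striatum. Drd3 had 37 UMIs in all, 33 of them in 32 spiny cells (17 direct-pathway, 8 indirect-pathway and 5 eccentric cells). Its level over all spiny cells was 0 in both set A pools and 0.362 to 0.451 CPM in the set B pools. No Drd3 UMI was counted in 47985 cortical cells, which allows a share of cells with a UMI of up to 0.00625%. Drd4 had 39 UMIs in 36 spiny cells, and its level over all spiny cells was 0.38 ± 0.25 CPM.

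Neighbouring classes in the order of level were compared within pools by exact sign-flip permutation tests (two-sided, on log2(CPM + 1)), in which 6 pools cannot give a p below 0.03125. In dorsal striatum 4 of 70 neighbour pairs reached that value: Drd1 in direct-pathway spiny against Sst cells (difference 2.61 ± 0.23), Drd1 in indirect-pathway spiny cells against oligodendrocyte precursors (0.76 ± 0.38), Drd2 in cholinergic against Sst cells (5.56 ± 0.82) and Drd5 in cholinergic against Pvalb cells (5.02 ± 1.14), each in 6 of 6 pools. Their adjusted p was 0.547, so none passed after adjustment over the 70 pairs. With this smallest p, a pair can pass only if most pairs of its region reach it. The adjusted p therefore cannot decide on a single pair in either region. In motor cortex 4 of 90 pairs reached the smallest p (2 for Drd1, 1 for Drd2 and 1 for Drd5), and none passed after adjustment.

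Direct-pathway and indirect-pathway spiny cells differed in the first 2 members by design of the classes, since their markers are linked to Drd1 and Drd2 in the literature. The difference is therefore a description. Drd1 was higher in direct-pathway cells by 5.75 ± 0.92 on the log2(CPM + 1) scale, or 54.0-fold, in 6 of 6 pools. Drd2 was lower there in 6 of 6 pools, with a difference of −6.52 ± 0.37, or 91.9-fold. The exact sign-flip test gave its smallest possible p of 0.03125 for both (adjusted over the 5 members, 0.0781). With 2 of the 5 members at that smallest p, no adjusted p under 0.05 was possible. Drd3 (0.19 ± 0.30), Drd4 (0.01 ± 0.37) and Drd5 (0.09 ± 0.10) gave exact adjusted p-values of 0.313, 1 and 0.313, with few UMIs behind them.

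The low Drd1 level of indirect-pathway cells, 7.55 ± 2.51 CPM, was spread unevenly. A sub-cluster of 112 cells, singled out after its values were seen, had 148 CPM of Drd1 and 282 CPM of Drd2, and 92.9% of its cells came from set A pools. It had the name from Penk, Adora2a, Gpr6 and Sp9, but only Adora2a of these was among its 10 leading genes. The others were the receptor Drd2 itself, Pdyn, a direct-pathway marker, Igfbpl1, a neuroblast marker, and Tubb2b, Nfib, Marcksl1, Cd24a, Stmn1 and Nfix. It held 27 of the 36 Drd1 UMIs of indirect-pathway cells in control replicate 1 and 35 of 63 in late replicate 1. Without it, the Drd1 level of indirect-pathway cells went from 10.4 to 2.70 CPM in control replicate 1 and from 8.20 to 3.78 in late replicate 1. In control replicate 2, a set B pool, it went from 5.28 to 4.91, and the early pools and late replicate 2 are given with the training stages.

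Drd1 and Drd2 UMIs were seldom found in the same spiny cell. With every cell thinned to 1000 UMIs, 3678 of 21775 spiny cells had Drd1 alone, 4061 had Drd2 alone and 23 had both, where 676.5 would be expected within pools if the genes were independent. The share with both was 0.106 and 0.0660% in the control pools, 0.0927 and 0.114% in the early pools and 0.138 and 0.0932% in the late pools. The log2 odds ratio of co-detection ran from −5.94 to −4.37 over pools (−5.36 ± 0.66, below 0 in 6 of 6 pools, exact sign-flip permutation test, two-sided, p = 0.03125, the smallest possible). Training stages overlapped, and 2 pools against 2 cannot give an exact p below 0.333. In the 4 set B pools alone the mean was −5.77 (exact p = 0.125, the smallest for 4 pools). Cells presumed to be doublets, which had been removed, gave −1.77 in a separate count, with 5 of 816 holding both.

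**Figure D2:**
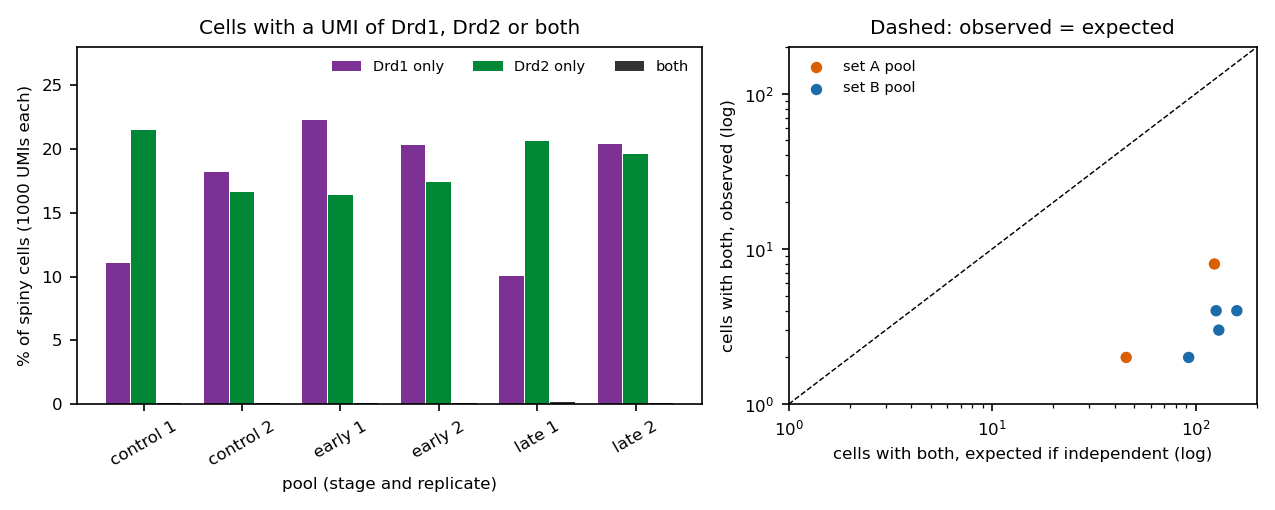
Left, share of spiny cells, each thinned to 1000 UMIs, with a UMI of Drd1 only, Drd2 only or both (y axis, percent) in each of 6 striatal pools (x axis). Right, number of cells with both genes expected under independence (x axis, log scale) and observed (y axis, log scale), 1 point per pool. Observed counts of 2 to 8 cells lie far under the dashed line of equality, and both set A pools (control 1 and late 1) have fewer Drd1-only than Drd2-only cells.

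Without thinning, 262 spiny cells held UMIs of both genes against 3240.6 expected within pools. These cells were deeper (median 6393 UMIs) than cells with Drd1 alone (5286), Drd2 alone (4679) or neither (2554.5). Tac1, which encodes substance P and marks the direct pathway, was found in 67.9% of them and Penk, which encodes enkephalin and marks the indirect pathway, in 73.7%. Of Drd1-only cells 22.5% had Penk UMIs, and of Drd2-only cells 16.5% had Tac1 UMIs. Adora2a, an adenosine receptor gene of indirect-pathway cells, was found in 56.9% of the cells with both receptors, 1.94% of Drd1-only and 94.0% of Drd2-only cells. Within a kind, expected counts were taken from the shares over all pools together, so differences between pools are not held fixed. Without thinning, both were found in 86 direct-pathway cells against 89.8 expected, 122 indirect-pathway cells against 158 and 42 eccentric cells against 36.5. After thinning to 1000 UMIs the counts were 6 against 10.8, 11 against 23.3 and 3 against 3.27 in the same order. In eccentric cells with Drd1 alone, 98.1% had Tac1 and 77.8% had Penk UMIs, whereas Isl1, a direct-pathway transcription factor, was in 0.41% of them.

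In motor cortex, Drd1 had its highest level in layer 6b neurons, the deepest layer, marked by Ctgf (90.8% of cells) and Cplx3 (92.8%). Its level was 37.6 and 74.6 CPM in the control pools, 81.9 and 78.2 in the early pools and 53.0 and 77.3 in the late pools (67.1 ± 17.7), and 426 of 892 cells had a UMI (47.8%, 44.5 to 51.0%, at a median of 10460 UMIs). The share in cortical microglia was 0.0589% at a median of 1820 UMIs. Layer 6b stood 1.25 ± 0.57 above the next named class, Sst interneurons, on the log2(CPM + 1) scale, in 6 of 6 pools (exact p = 0.03125, adjusted 0.703 over 90 neighbour pairs in the cortex). Sst interneurons (28.6 ± 12.8 CPM), Pvalb interneurons (26.9 ± 9.93), layer 6 intratelencephalic (24.4 ± 4.80), near-projecting (20.9 ± 10.1) and layer 6 corticothalamic neurons (16.4 ± 4.81) followed. Neighbours among these 5 classes did not differ beyond the spread of the pools. Layer 5 neurons had 5.02 ± 1.72 CPM, and layer 2/3 neurons 0.06 ± 0.09 CPM. Of the layer 5 markers, Fezf2 was found in 53.5% of the cells so named against 10.2% of all others. Bcl11b was found in 17.8% against 19.5%, so this marker did not set the class apart.

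Drd5 in motor cortex was highest in near-projecting neurons, cells of the deep layers marked by Tshz2. Its level was 15.2 and 14.6 CPM in the control pools, 10.1 and 12.2 in the early pools and 15.1 and 8.43 in the late pools (12.6 ± 2.87). Layer 6b followed with 8.84 ± 2.54 CPM, layer 6 corticothalamic neurons with 6.81 ± 1.09 and layer 5 with 6.22 ± 3.02. Near-projecting neurons were above layer 6b in 6 of 6 pools by 0.49 ± 0.47 on the log2(CPM + 1) scale (exact p = 0.03125, adjusted 0.703). Drd1 and Drd5 were found together in 141 cortical glutamatergic cells, against 54.8 expected within pools. Layer and depth were not held fixed in this count.

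Drd2 was low in motor cortex. Vip interneurons had 6.38 ± 1.98 CPM (65 of 2141 cells with a UMI), Sst interneurons 6.01 ± 4.61 and Lamp5 interneurons 3.15 ± 1.71, while glutamatergic neurons had 5 UMIs in 17581 cells. A group of 281 GABAergic cells left without a subclass name had 15.2 ± 7.14 CPM. It was mixed: its largest cluster, of 164 cells, was led by Sst, and 2 clusters of 23 and 14 cells held Vip markers beside microglial or glutamatergic genes. Drd4 had its highest level in layer 2/3 neurons, at 2.04 and 2.61 CPM in the control pools, 3.22 and 2.35 in the early pools and 4.25 and 1.58 in the late pools (2.67 ± 0.95, 73 of 3387 cells). A larger class of 4451 cells, named layer 2/3 or 4/5 because its markers did not separate these layers, had 0 to 0.276 CPM of Drd4 (3 UMIs). The layer 2/3 value therefore holds for the separately named cells only. Vip interneurons had 1.81 ± 0.53 CPM of Drd4 and layer 6 intratelencephalic neurons 1.05 ± 0.78. Layer 2/3 exceeded Vip cells in 5 of 6 pools by 0.37 ± 0.45 on the log2(CPM + 1) scale (exact p = 0.0938, adjusted 1).

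Classes found in both regions were compared by exact permutation tests (6 pools against 6, two-sided, on log2(CPM + 1), adjusted over 37 member and class pairs in 11 classes). In 14 pairs the adjusted p was under 0.05, 12 of them higher in striatum and 2 higher in cortex. Drd1 in Pvalb interneurons was among the 2. In cortex it was 30.7 and 33.3 CPM in the control pools, 17.7 and 25.5 in the early pools and 13.7 and 40.2 in the late pools. In striatum it was 1.85 and 7.35, 7.35 and 0, and 1.93 and 0 CPM. The regions did not overlap, and the difference (striatum minus cortex) was −3.18 (adjusted p = 0.0114; exact p = 0.00216, the smallest for 6 against 6). The class was not the same mixture in both: 91.8% of the cortical and 48.3% of the striatal cells had a Pvalb UMI, and 22.8% and 86.0% had a Pthlh UMI. Drd5 had the opposite direction in these cells, with 15 UMIs in striatum and 0 in cortex (adjusted exact p = 0.0400).

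Drd1 in Sst interneurons was higher in striatum, 40.8 to 127 CPM against 15.4 to 52.6 in cortex, a difference of 1.39 (adjusted exact p = 0.0267), and the ranges overlapped. This class too was not the same mixture: all 3 striatal clusters had Nos1 and Chodl among their leading genes, against 1 of 3 in cortex (141 of 358 cells), and 164 cortical cells led by Sst had no subclass name. Over all GABAergic interneurons, striatum was higher for Drd1 (pooled level 41.2 against 11.4 CPM, adjusted exact p = 0.0114), Drd2 (8.72 against 5.29, 0.0200) and Drd5 (3.43 against 0.322, 0.0114), and lower for Drd4 (0.198 against 0.848, 0.0400). This class holds different cells in the regions: 2141 Vip and 1386 Lamp5 cells of 4447 in cortex, and 857 Sst and 565 Pvalb cells of 1958 in striatum, where no Vip or Lamp5 cluster was named. Of the 29 cortical Drd4 UMIs, 26 were in Vip cells. The other 7 pairs were Drd1 or Drd2 in striatal glia, endothelial cells and pericytes. Pooled levels there, over the UMIs of all pools together, were low, such as 2.47 CPM of Drd1 in striatal astrocytes and 0 in cortical ones. UMIs of the 10 spiny-neuron markers per 1000000 were 683 to 823 in striatal and 565 to 879 in cortical astrocytes, 646 to 1693 and 751 to 962 in oligodendrocyte precursors, and 217 to 1131 and 88.4 to 166 in microglia, and the part of free RNA in these differences was not tested. Drd5 in oligodendrocyte precursors had a pooled level of 3.33 CPM in striatum and 3.60 in cortex (adjusted exact p = 0.873). This class had 44 cells with a Drd5 UMI in cortex where microglia had none. Early replicate 2 of both regions shared a sequencing flowcell, as did late replicate 2. Within these flowcells Drd1 in Pvalb cells was 0 against 25.5 and 0 against 40.2 CPM, and Drd1 in Sst cells was 85.0 against 52.6 and 97.2 against 31.3, with striatum first. In the 4 set B pools of each region, Drd1 in Pvalb and Sst cells and Drd5 in Pvalb cells did not overlap between regions. Their adjusted exact p was 0.0857, and no pair passed. With 4 pools against 4, no exact p falls below 0.0286, and a pair can pass only if most pairs reach that value.

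**Figure D3:**
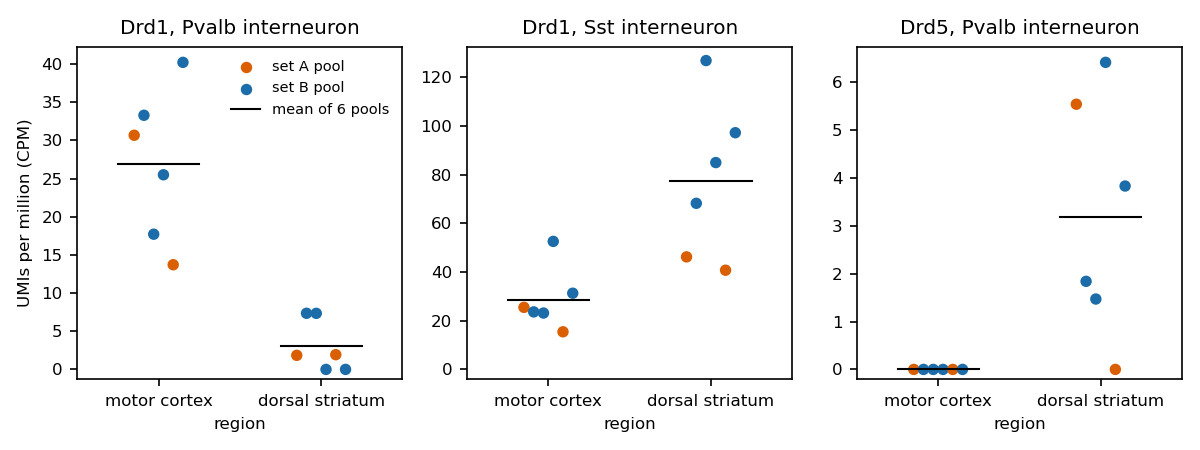
Level in CPM (y axis, linear) of Drd1 in Pvalb and Sst interneurons and Drd5 in Pvalb interneurons in each region (x axis), 1 point per pool, orange for set A and blue for set B, with the mean of 6 pools as a line. Drd1 in Pvalb cells is 13.7 to 40.2 CPM in cortex and at most 7.35 in striatum, while Drd1 in Sst cells is higher in striatum.

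Sets A and B differed in receptor level within several classes, as they did for many other genes, with no test. Drd1 was lower in both set A pools than in all set B pools of the region in 7 of 12 classes with at least 50 UMIs, where 29.3% of 324401 gene and class pairs showed that order. Drd2 was above in 2 of 7 classes and Drd5 in 2 of 5, where 17.4% of pairs did. The opposite order was found in 0 classes for each of these genes. Nothing particular to the receptors is read from these counts. Near-projecting neurons had 8.43 and 8.76 CPM of Drd1 in set A against 23.7 to 33.2 in set B, and the Drd5 level of the same cells was 15.1 and 15.2 against 8.43 to 14.6. The set also holds its own mice and flowcells, and these cannot be told apart.

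Training stage was tested with edgeR's quasi-likelihood test on UMIs summed per pool, with stage and barcode-sharing set (A or B) in the model and Benjamini-Hochberg adjustment over all genes of a class and comparison. In 6 classes 15 member and class pairs passed the filter on low counts, and Drd3 passed in none. The 3 comparisons of a region share pools. None of the 45 member tests had an adjusted p under 0.05 (smallest 0.339), and DESeq2 called none of 42, with 1 unadjusted. In edgeR 5 of the 45 had an unadjusted p under 0.05, as did 14304 of 273243 tests over all genes. All spiny cells include the direct-pathway and indirect-pathway cells, so these tests are not independent. Over all genes and the 18 comparisons edgeR called 12 of 273243 tests, and the count was 49 with DESeq2, 2437 with no filter on low counts and 0 with no term for the set. Of all genes tested in early minus control, late minus control and late minus early in turn, edgeR called 0.00688%, 0% and 0% in direct-pathway spiny cells, 0.0133%, 0% and 0.00666% in indirect-pathway cells, 0.0116%, 0% and 0% in all spiny cells, and 0.0243%, 0.0162% and 0.00809% in striatal GABAergic interneurons. It called 0%, 0% and 0% in cortical glutamatergic neurons and 0%, 0% and 0% in cortical GABAergic interneurons.

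Drd1 in direct-pathway spiny cells changed by 0.08 ± 0.14 (log2 change ± SE) in early minus control, 0.02 ± 0.13 in late minus control and −0.06 ± 0.14 in late minus early. The 95% interval of late minus control was −0.26 to 0.30. Within the flowcell that held control and late replicate 1, late minus control was −0.23 on the log2(CPM + 1) scale. Within that of control 2 and early 1, early minus control was 0.21. Drd2 in indirect-pathway cells changed by −0.20 ± 0.14, 0.02 ± 0.12 and 0.22 ± 0.13, with within-flowcell values of −0.17 (early minus control) and −0.19 (late minus control). Drd1 in cortical glutamatergic neurons was 8.40 and 15.7 CPM in the control pools, 18.0 and 18.4 in the early pools and 8.63 and 20.8 in the late pools, and its changes were 0.15 ± 0.17, 0.26 ± 0.15 and 0.11 ± 0.16. Drd5 in the same cells ran from 3.44 to 4.05 CPM over all 6 pools. The mix of layers was not held fixed in these sums. Layer 6b, the cortical class highest in Drd1, made up 3.38% of glutamatergic neurons in late replicate 1 and 7.89% in late replicate 2. The part of the layer mix in the changes was not tested.

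**Figure D4:**
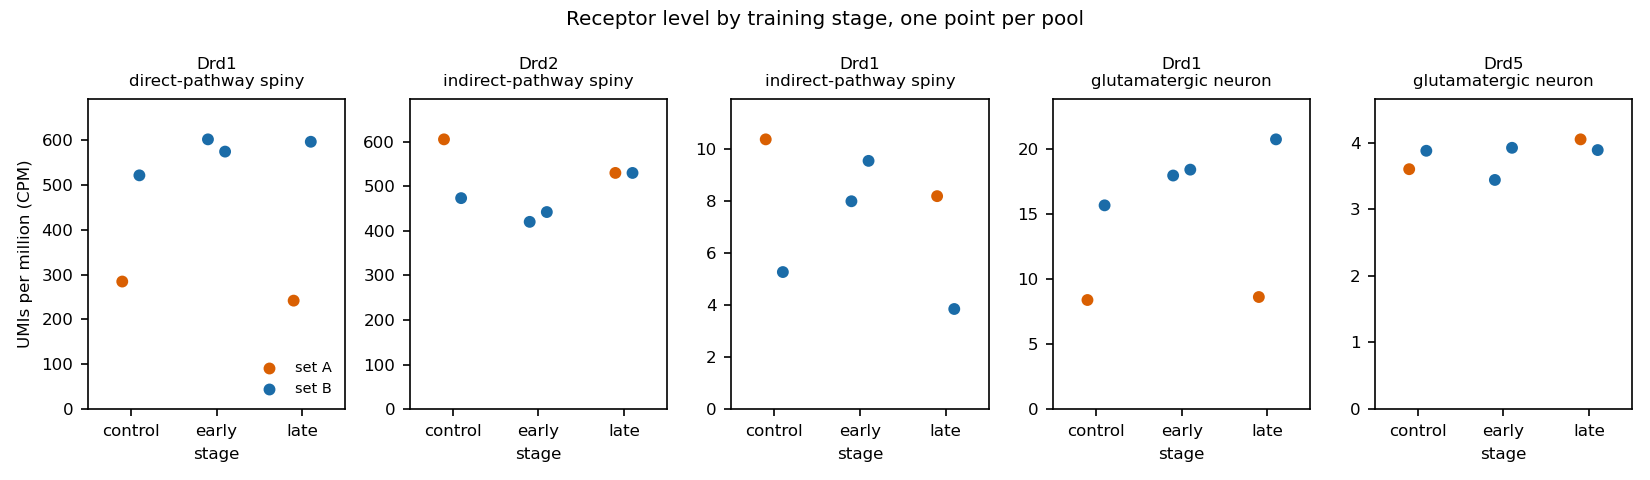
Level in CPM (y axis, linear from 0, a scale of its own in each panel) by training stage (x axis), 1 point per pool, orange for set A and blue for set B, for Drd1 and Drd2 in spiny cells of dorsal striatum and Drd1 and Drd5 in cortical glutamatergic neurons. Drd1 is low in the 2 set A pools of direct-pathway and glutamatergic cells, and the set B pools of the 3 stages lie close together there.

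The 5 tests with an unadjusted p under 0.05 in edgeR were as follows. Drd1 in indirect-pathway cells gave −1.14 ± 0.27 in late minus early (edgeR adjusted p = 0.339) and 0.78 ± 0.27 in early minus control (edgeR adjusted p = 0.926). Drd4 in all spiny cells gave 2.43 ± 0.82 in late minus control (edgeR adjusted p = 0.826), from 39 UMIs. Drd1 in striatal GABAergic interneurons gave 0.60 ± 0.25 in early minus control (edgeR adjusted p = 0.688), and Drd2 in all spiny cells 0.31 ± 0.13 in late minus early (edgeR adjusted p = 0.513). Drd1 in indirect-pathway cells was 10.4 and 5.28 CPM in the control pools, 8.01 and 9.56 in the early pools and 8.20 and 3.86 in the late pools, and the stages overlapped. Without the sub-cluster of 112 cells the values were 2.70 and 4.91, 8.01 and 9.58, and 3.78 and 3.86. The early pools were then the high ones, but the sub-cluster was chosen after its values were seen and no test was made. Over 14 alternative fits the late minus early change ran from −1.31 to −0.44, the last with no term for the set (edgeR adjusted p = 0.705). With no filter on low counts it passed (−1.15, edgeR adjusted p = 0.0108), where 2437 tests were called over all genes. Without control replicate 1, control replicate 2 or late replicate 1 the change was −1.18 each time. In these fits the set term left late replicate 2 alone against the early pools, so they are the same comparison and nothing is read from them.

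Contralateral and ipsilateral hemispheres of the 4 trained pools of a region were compared with the pool as a block. None of 13 member tests was called by edgeR (smallest adjusted p = 0.836, 2 with an unadjusted p under 0.05) and none by DESeq2 (0 unadjusted). Over all genes 3396 of 77349 edgeR tests had an unadjusted p under 0.05. Of all genes edgeR called 0.0401% in direct-pathway cells, 0.0778% in indirect-pathway cells, 0.0136% in all spiny cells, 0.0201% in striatal and 0.0829% in cortical GABAergic interneurons and 0.118% in cortical glutamatergic neurons. Drd1 in cortical glutamatergic neurons was lower on the contralateral side in 4 of 4 pools, at 17.2 against 18.8, 16.8 against 20.2, 7.79 against 9.58 and 20.3 against 21.3 CPM. The log2 change, 1 of the 2 with an unadjusted p under 0.05, was −0.16 ± 0.08 (edgeR adjusted p = 0.836). Drd2 in direct-pathway cells was also lower on that side in 4 of 4 pools. Its log2 change, the other of them, was −0.56 ± 0.27 (edgeR adjusted p = 0.999). The cortical glutamatergic sum joins layers with unlike Drd1 levels. Their mix on each side was not held fixed, and its part in the Drd1 change was not tested.

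Cells with a reporter UMI, of wpre or tdtomato, made up 18.9% of spiny cells and 19.4% of cortical glutamatergic neurons, against 5.56% and 5.87% of microglia in the same regions. The median depth was 4263 and 7397 UMIs in these neurons and 1825 and 1820 in microglia. Part of the positive cells can therefore be background, and the share that is was not tested. No difference in receptor level was found between reporter-positive and reporter-negative cells of a pool. The log2 difference was 0.01 for Drd1 (95% interval −0.04 to 0.07) and 0.02 for Drd2 (−0.03 to 0.08) in spiny cells, and 0.02 for Drd1 (−0.13 to 0.17) and −0.02 for Drd5 (−0.33 to 0.28) in cortical neurons. Neither edgeR nor DESeq2 called any of these 4, and none had an unadjusted p under 0.05 in either. Of all genes, edgeR called 0.444% in spiny cells and 8.42% in cortical neurons. A cell with a reporter but no captured UMI counts as negative. Positive cells had a higher median depth than negative cells in every pool of both regions. In control replicate 2 the medians were 12731 and 9673 UMIs in cortical glutamatergic neurons, and 5944 and 5602 in spiny cells. Depth and the mix of layers or spiny kinds were not held fixed, and their part in any reporter difference was not tested.

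Other genes of dopamine signalling were read from a list of 44, among them synthesis and transport genes (Th, Ddc, Slc18a2, Slc6a3), G protein subunits, regulators of G protein signalling, and targets of protein kinase A such as Ppp1r1b (DARPP-32). From 37 to 43 of them passed the filter in a fit. None was called by edgeR between stages or hemispheres. By reporter status, 2 of 39 tested in spiny cells were higher in positive cells: Rgs2, a regulator of G protein signalling (0.18 ± 0.02, adjusted p = 1.93e-09), and Rgs4, another (0.10 ± 0.02, 0.00233). The share called over all genes was 0.444%. The list's median was 0.007 and that of all genes 0.001. In cortical neurons 4 of 40 were higher and 1 was lower, with medians of 0.007 and 0.004, where 8.42% of all genes were called, so nothing is read from that count: Rgs2 (0.19 ± 0.03, adjusted p = 1.61e-06), Caly, which encodes a protein that binds D1-type receptors (0.12 ± 0.02, 0.000122), Gnai1, an inhibitory G protein subunit (0.10 ± 0.02, 0.00471), Ppp1ca, a catalytic subunit of protein phosphatase 1 (0.07 ± 0.02, 0.0404), and Rasgrp2, a Rap exchange factor (−0.54 ± 0.13, 0.00305). Ppp1ca lost its call in 6 alternatives, among them DESeq2 and 4 of the fits without 1 pool, Gnai1 in 2 (without control replicate 2, and with at least 2 reporter UMIs) and Rasgrp2 in 2 (DESeq2, and without early replicate 1). With at least 2 reporter UMIs the count over both regions was 15 in place of 7. The share called over all genes at that cut is not given here, so nothing is read from the rise. Positive cells were deeper than negative ones, as given above, and depth was not held fixed.

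Across 35 named classes of both regions, likeness to each receptor was measured as Pearson's r of mean log2(CPM + 1) among 14648 genes with at least 1000 UMIs. Classes share libraries, so r is a description. Drd1 was most like Bcl11b (0.81), a transcription factor of spiny and deep-layer neurons, then Myo5b, Rem2, Tmem91 and Rab3b (0.73 to 0.80). Drd2 was most like Mme (0.73), which encodes the peptidase neprilysin, then Gpr6, Penk, Dchs2 and Ikzf3 (0.67 to 0.71). Drd4 was most like Tmem114 (0.85), then Npy5r, Igfn1, AC124561.1 and Kcng2 (0.62 to 0.69). Drd5 was most like Cabp7 (0.83), then Slc17a8, which encodes the vesicular glutamate transporter VGLUT3, Acly, Nxph3 and AC129186.2 (0.70 to 0.77). Bcl11b, Gpr6, Penk and Slc17a8 are also markers used to name classes. Between the 4 receptors with at least 100 UMIs, r was 0.17 for Drd1 and Drd2, 0.21 for Drd2 and Drd5, 0.14 for Drd1 and Drd4, 0.09 for Drd1 and Drd5, −0.01 for Drd2 and Drd4 and −0.14 for Drd4 and Drd5. Drd3, with 37 UMIs, had 0.53 with Drd1 and 0.28 with Drd2.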

How the data were processed

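UMI counts per gene and cell were deposited by the authors as filtered 10x matrices. They were made with Cell Ranger 3.1.0 on GRCm38, per the submitters' processing notes, while the file headers give software version 3.0.2. The counts were not normalised. A barcode counted as a cell from 500 genes and 1000 UMIs upward, if mitochondrial UMIs did not exceed 20%. Presumed doublets, the highest Scrublet scores at 0.8% of cells per 1000 barcodes, were removed. Cells of each region were clustered without the receptors (2000 variable genes, 40 principal components, 20 neighbours, Leiden resolution 1.5, leidenalg 0.10.2, scanpy 1.11.5) and named from marker lists. The naming rules were adjusted after clusters were seen, and the receptors, marker lists and pathway list were chosen with earlier results of these data known. UMIs were summed per pool and class, and levels are UMIs per 1000000 with a pseudocount of 1 before logs. Stage, hemisphere and reporter were tested with edgeR 4.0.16 (quasi-likelihood, TMM, filterByExpr), with DESeq2 1.42.0 as an alternative, after tests on simulated counts. Other tests were exact permutation tests over every sign change or regrouping of the pools (numpy 2.4.6), with classes of at least 20 cells in every pool. Genes named were the 5 receptors, pathway genes called in a fit, and the 5 genes most like each receptor with at least 100 UMIs, and the sub-cluster of indirect-pathway cells was singled out after its values were seen. Same-numbered pools did not deviate together in every pair of stages, so pools were not paired across stages. Intervals of shares cover counting error only, and intervals of log2 changes come from the fits.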

Additional observations from a re-analysis of the deposited data

Results flagged for a closer look

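In groups of 6 pools, 35 receptor and class pairs were searched for a pool far from the others, and 2 were found, where chance marks about 1 in 20. Drd2 in striatal Sst interneurons was 18.3 CPM in control replicate 1, and the next pool was at 7.82. Drd2 in striatal microglia was 34.7 CPM in late replicate 1, and the next pool was at 4.47. UMIs of 10 spiny-neuron markers made up 1131 per 1000000 in the microglia of that pool against 217 to 366 in the other 5 pools. Their part in the Drd2 value was not tested.

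In some classes that entered no comparison, a larger share of cells held receptor UMIs than in microglia, at a greater depth (median 5401 UMIs in eccentric spiny cells and 8029 in the glutamatergic cluster, against 1825). In eccentric spiny cells the share of cells with a UMI was 81.1% for Drd1, 4.75% for Drd2, 0.528% for Drd3 and 0.317% for Drd4. In a striatal cluster of glutamatergic cells, in which Slc17a7 was found in 100% of cells, the share was 32.6% for Drd1, 4.98% for Drd2 and 4.98% for Drd5. In CPM, Drd2 was 6.90 to 18.8 in the eccentric cells of set B pools (the set A pools held 1 UMI each, in 8 and 10 cells) and 7.03 ± 6.28 in the glutamatergic cluster. In microglia it was 1.85 to 4.47 in 5 pools and 34.7 in late replicate 1.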

How the results depend on the processing

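Over the alternatives, 148 of the values that answer a comparison stayed the same and 19 moved. The direct minus indirect difference of Drd4, 0.01 and not called, changed sign: it ranged from −0.0549 to 0.122 when 1 pool was left out and was −0.0034 with the stricter cell filter. The 14 receptor and class pairs that differed between regions became 0 with set B alone, where 4 pools against 4 allow no exact p below 0.0286. The count of receptor stage changes, 0, was 1 with no filter on low counts, for Drd1 in indirect-pathway cells. For the same gene and class it moved in some fits that left out 1 pool. Those hold a single pool of 1 stage, and nothing is read from them. The count of dopamine pathway genes changed by stage, 0, was 3 with no filter and 1 with a replicate block, where 2437 and 166 tests were called over all genes. It also moved in some fits that left out 1 pool, which hold a single pool of 1 stage, and nothing is read from these. With at least 2 reporter UMIs, 15 pathway genes were called by reporter status in place of 7. The share called over all genes at that cut is not given here, so nothing is read from the rise. The striatal class ranked after indirect-pathway and cholinergic cells for Drd2, Sst interneurons, gave way to fibroblasts with a pseudocount of 10 CPM and to endothelial cells with the stricter filter. Of single genes, Gnai1 lost its call in 2 alternatives, Ppp1ca in 6 and Rasgrp2 in 2. The cause was not tested.

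Over all genes, the stage count was 12 with edgeR, 49 with DESeq2, 2437 with no filter, 0 with no term for the set and 166 with a replicate block. The hemisphere count was 47 with edgeR and 5 with DESeq2, and the reporter count 1317 and 626. The replicate block changed no receptor call. Deviations of same-numbered pools correlated at 0.50 to 0.71 between control and late, whose replicates 1 are both in set A, −0.30 to −0.14 between control and early and −0.24 to 0.23 between early and late. With 2 pools per stage and 2 residual degrees of freedom, small changes in rare receptors were not detectable.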

Other observations

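Of the spiny cells, 2084 were left without a pathway name. In 2 of their sub-clusters, described after their values were seen, both receptor genes were present at the level of the summed cells. The first, of 480 cells, had 273 CPM of Drd1 and 217 CPM of Drd2. Ribosomal and mitochondrial transcripts were among its leading genes (Gm42418, mt-Rnr1, mt-Nd3), and its median depth was 0.517 of that of its libraries. The second, of 174 cells, had 147 CPM of Drd1 and 238 CPM of Drd2, and Apoe and Slc1a2, which astrocytes express, were among its leading genes. Among all unnamed spiny cells 12 held UMIs of both genes, against 58.9 expected from the shares over all pools together. Differences between pools are not held fixed in that value. Among direct-pathway cells, 2 sub-clusters with 99.2% and 99.4% of cells from set A had 263 and 235 CPM of Drd1, and 3 with 1.98% to 3.47% from set A had 512 to 615 CPM, so sub-cluster and set cannot be told apart here.

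Drd3 and Drd1 were found together in 22 spiny cells, against 14.0 expected within pools, and Drd3 and Drd2 in 5 cells, against 13.2 expected. Drd4 and Drd1 were found together in 18 spiny cells (13.4 expected), and Drd4 and Drd2 in 14 (14.7 expected). Cells were not thinned for these counts, and depth and spiny kind were not held fixed.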
